A study of Sus scrofa with 15 samples.

Results

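Ovulation depends on a small set of genes that granulosa cells and the cumulus cells around the oocyte switch on after the surge of luteinizing hormone. Prostaglandin-endoperoxide synthase 2 (PTGS2) turns arachidonic acid into prostaglandin H2, and prostaglandin E synthase (PTGES) turns that into prostaglandin E2, which is needed for expansion of the cumulus and rupture of the follicle. Hyaluronan synthase 2 (HAS2) extrudes the hyaluronan that forms the expanded cumulus matrix, TNF alpha induced protein 6 (TNFAIP6) transfers the heavy chains of inter-alpha-trypsin inhibitor onto it, and pentraxin 3 (PTX3) binds those chains and helps hold the matrix together. The transcript levels of these 5 genes are described here in pig granulosa cells that lose their differentiated state in culture.

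The genes were found by their symbol in the array annotation. All 5 were measured, by 6 of 23999 probe sets, and they are 5 of 6765 genes with a probe set of their own. PTX3 had 2 probe sets, of which the one with the higher mean over all arrays was used (4.70 against 4.34). On day 0 the other was brighter on every array, at 4.15, 4.0 and 4.23 against 3.73, 3.53 and 3.22. The rule thus took the probe set that rose more, and its higher mean came from the later days. HAS2 is annotated under SHAS2, an older symbol of the same gene.

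Total RNA of granulosa cells (GC) from pig (Sus scrofa) ovarian follicles was hybridised to Affymetrix porcine genome arrays, with 3 arrays on each of 5 days and 15 in all. Cells of day 0 had not been cultured, those of days 1, 2 and 4 are labelled dedifferentiating, and those of day 7, named DFOG, are labelled dedifferentiated and had grown until semiconfluent. No group carries a genetic change, and the labels used here name no hormone, agent, medium or age. The labels call the replicates biological without saying whether they came from separate animals or cultures, so every p value here rests on array-to-array spread that may be technical.

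Values are log2 intensities per probe set, and the number of arrays limits their precision. A call required, in limma, a Benjamini-Hochberg adjusted p under 0.05 over all 23999 probe sets and a difference of at least 1 on the log2 scale, which is 2-fold. The lower quartile of all probe sets on an array lay between 4.41 and 4.68 and the median between 6.40 and 6.55. A level at or below that quartile is mostly background, so a change from such a level can be understated. Arrays of the same day correlated at 0.963 to 0.996.

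The cells of day 0 carried high levels of granulosa transcripts, with a mean of 14.26 ± 0.20 (SD, n = 3) for INHA, the inhibin alpha subunit, and 13.52 ± 0.25 for HSD17B1, which makes estradiol from estrone. Aromatase (CYP19A1) at 5.26 ± 0.32 and the granulosa transcription factor FOXL2 at 5.89 ± 0.14 were below the array median on day 0, and the day means of both stayed below it on the other days. Summed over the 12 granulosa markers, linear intensity went from 42287 to 56960 in uncultured cells down to 1850 to 2065 in day 7 cells, while that of 9 measured fibroblast and smooth muscle markers was 697 to 975 and 41158 to 41636. The difference between the 3' and 5' ends of the actin control transcript, a measure of RNA integrity, ran from 0.97 to 1.68 in uncultured cells. In culture it ran from 0.02 to 1.01, apart from 2.12 in day 4 replicate 2. Replicate 1 had the lowest value on every day, and likewise for the GAPDH control transcript.

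PTGES fell, HAS2 and PTX3 rose, and PTGS2 and TNFAIP6 stayed in the lowest part of every array. The fall of PTGES and the rise of HAS2 were called from day 1 on and were mostly complete by day 2. PTX3 was not called on day 1, and its rise was called on days 2, 4 and 7 in 1 of its 2 probe sets. No member was called between days 4 and 7.

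**Figure D1:**
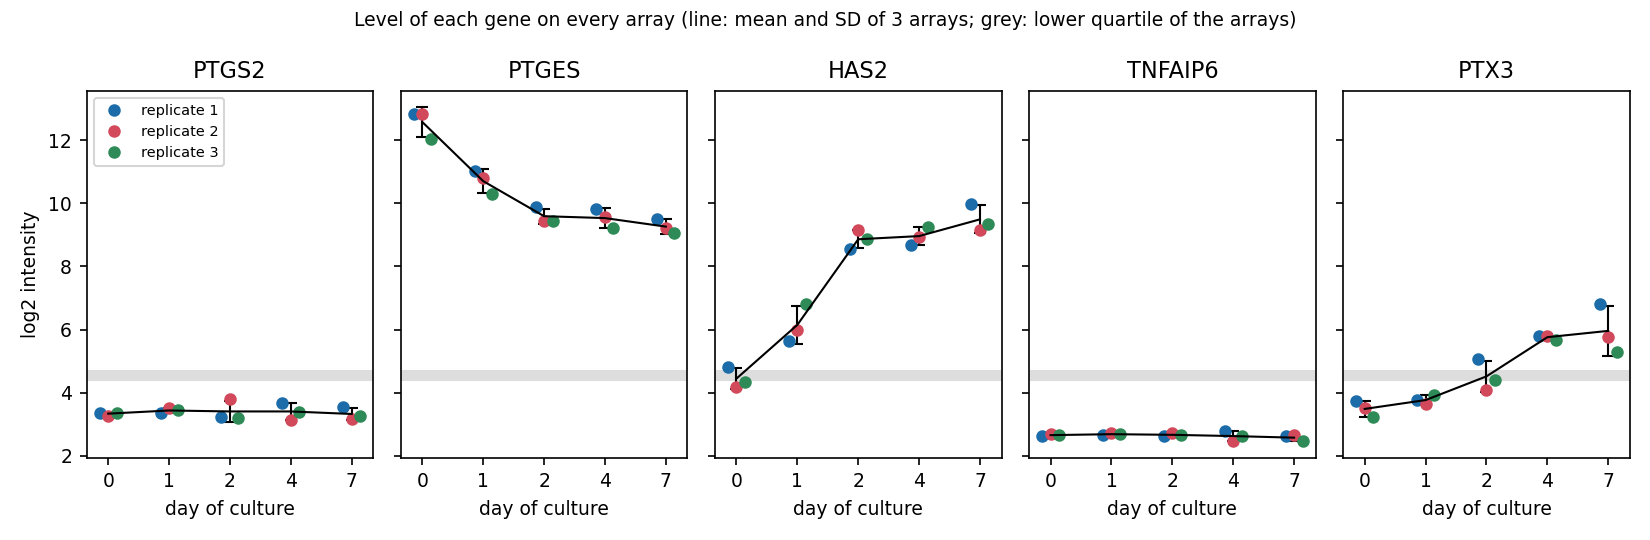
Log2 intensity (vertical axis) of the 5 genes on each of the 15 arrays by day of culture (horizontal axis, days shown at equal steps). Points are single arrays coloured by replicate number, lines join day means with the SD of 3 arrays, and the grey band marks the lower quartiles of the arrays, 4.41 to 4.68. PTGES lies far above the band on every day, and HAS2 lies in or near it on day 0 and above it afterwards. PTX3 lies below the band on days 0 and 1, around it on day 2 and above it from day 4. PTGS2 and TNFAIP6 lie below it throughout.

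PTGS2, the inducible cyclooxygenase, showed no level above the lower quartile of the probe sets on any of the 15 arrays. Its values were 3.37, 3.27 and 3.37 on day 0, 3.37, 3.51 and 3.45 on day 1, 3.23, 3.79 and 3.20 on day 2, 3.69, 3.15 and 3.39 on day 4, and 3.55, 3.16 and 3.28 on day 7, in the order of replicates 1 to 3. Between 5.2% and 14.2% of the probe sets of an array were lower. No day stood apart from the others, and the highest array, day 2 replicate 2, shared its day with arrays near the low end of all values.

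The day means of PTGS2 spanned 0.11 and did not pass the F test over the time course (limma, adjusted p = 0.98). The change from day 0 was 0.10 on day 1, with a 95% confidence interval of -0.28 to 0.49 (adjusted p = 0.757 in limma). On day 7 it was -0.01, with an interval of -0.39 to 0.38. These intervals leave out a change of 2-fold in this probe set. At levels this low, an absent transcript and a probe set that does not detect it cannot be told apart.

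PTGES, which acts on the product of the cyclooxygenases, was highest on day 0 and then fell. Its log2 intensity was 12.84, 12.84 and 12.03 on day 0 in replicates 1 to 3. It was 11.02, 10.79 and 10.29 on day 1, with all arrays below those of day 0. It was 9.87, 9.45 and 9.45 on day 2, 9.83, 9.55 and 9.21 on day 4, and 9.51, 9.23 and 9.05 on day 7. The arrays of day 2 were all below those of day 1, whereas those of days 2, 4 and 7 overlapped.

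Relative to day 0, PTGES was lower by 3.65-fold on day 1 (log2 change -1.87 ± 0.26, SE; limma adjusted p = 0.000109). By day 2 it was 7.89-fold lower (adjusted p = 1.43e-06 in limma), and on day 4 it was 8.25-fold lower (7.39e-07). On day 7 the log2 change was -3.31, with a 95% confidence interval of -3.86 to -2.76, or 9.90-fold (limma adjusted p = 3.13e-07). PTGES still ranked high on the arrays, above 98.8% to 99.3% of probe sets on day 0 and above 82.5% to 86.6% on day 7. In bulk RNA, fewer cells that carry a transcript and less of it per cell cannot be told apart.

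The step from day 1 to day 2 was -1.11 ± 0.26 (SE) and passed the call with a limma adjusted p of 0.0204. That call was lost on leaving out either of replicates 1 and 2 of day 1 (-0.95 and -1.06) or either of replicates 2 and 3 of day 2 (-1.04 each). The later steps of PTGES were small, at -0.07 from day 2 to day 4 with an interval of -0.62 to 0.49, and -0.26 from day 4 to day 7 with an interval of -0.81 to 0.29. In order of level, day 0 was followed by days 1, 2, 4 and 7, and the neighbours from day 2 on did not differ beyond their spread. Replicate 1 had the highest PTGES value on all 5 days, level with replicate 2 on day 0 to 2 decimals, and replicate 3 the lowest on 4 of 5.

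HAS2, the main hyaluronan synthase of expanding cumulus, moved the other way and furthest of the 5 genes. It was near background on day 0, at 4.83, 4.18 and 4.34 in replicates 1 to 3, with replicate 1 just above the lower quartile of the arrays. On day 1 it was 5.64, 6.0 and 6.81, all above day 0. It was 8.55, 9.14 and 8.87 on day 2, 8.69, 8.94 and 9.25 on day 4, and 9.98, 9.15 and 9.33 on day 7. The arrays of day 2 lay well clear of those of day 1. Day 4 overlapped both day 2 and day 7. Every array of day 7 was above those of day 2, the nearest pair at 9.15 and 9.14.

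HAS2 was 3.25-fold higher on day 1 (log2 change 1.70 ± 0.30, SE; limma adjusted p = 0.000861). It was 21.2-fold higher on day 2 (limma adjusted p = 2.03e-07) and 22.8-fold higher on day 4 (9.47e-08). On day 7 the log2 change was 5.04, with an interval of 4.39 to 5.69, or 32.9-fold (limma adjusted p = 3.15e-08). These are changes from a level near background. The gene went from above 19.4% to 27.2% of the probe sets of an array to above 83.8% to 90.4%.

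The largest single step of HAS2 between sampled days was from day 1 to day 2, at 2.71 ± 0.30 (SE) or 6.53-fold (limma adjusted p = 0.000247). It then changed by 0.11 from day 2 to day 4, with an interval of -0.55 to 0.76, and by 0.53 from day 4 to day 7, with an interval of -0.12 to 1.18. Neither was called. The order of its levels was thus day 7, 4, 2, 1 and 0 from high to low. Neither days 2 and 4 nor days 4 and 7 differed beyond their spread. Day 7 against day 2 was not tested. No replicate number was regularly high or low for HAS2, since replicate 1 was lowest on 3 days and highest on the other 2.

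TNFAIP6, the heavy-chain transferase of the cumulus matrix, was among the dimmest probe sets of all 15 arrays. Its values in replicates 1 to 3 were 2.62, 2.70 and 2.65 on day 0, 2.65, 2.72 and 2.71 on day 1, 2.62, 2.73 and 2.65 on day 2, 2.78, 2.48 and 2.64 on day 4, and 2.62, 2.65 and 2.47 on day 7. At most 1.6% of the probe sets of an array were lower, and the arrays of all days overlapped. The day means spanned 0.12 (limma F test, adjusted p = 0.925). The change on day 7 was -0.08, with an interval of -0.32 to 0.16. As with PTGS2, this does not separate an absent transcript from a probe set that does not detect it.

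PTX3, the pentraxin of the cumulus matrix, rose from background. It was 3.73, 3.53 and 3.22 on day 0 in replicates 1 to 3, and 3.76, 3.63 and 3.92 on day 1, which overlapped. On day 2 it was 5.07, 4.08 and 4.41, all above the earlier days. It was 5.81, 5.80 and 5.66 on day 4, above all arrays of day 2, and 6.82, 5.78 and 5.29 on day 7. Day 7 spread widely and overlapped day 4, with replicate 1 at the top and replicate 3 below every array of day 4. Replicate 1 had the highest PTX3 value on 4 of 5 days.

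PTX3 changed by 0.28 on day 1, with a 95% confidence interval of -0.42 to 0.97 (limma adjusted p = 0.624). It was 2.03-fold higher on day 2 (log2 change 1.02 ± 0.32, SE; limma adjusted p = 0.0306) and 4.81-fold higher on day 4 (2.27; adjusted p = 0.000101). On day 7 it was 5.54-fold higher, with a log2 change of 2.47 and an interval of 1.78 to 3.16 (limma adjusted p = 4.46e-05). Even then it stood above only 34.3% to 53.8% of the probe sets of an array, against 6.0% to 11.8% on day 0.

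The early and middle steps of PTX3 were less firm than its end point. The call on day 2 was lost on leaving out replicate 2 or 3 of day 0 (1.04 and 0.89) or replicate 1 or 3 of day 2 (0.75 and 1.08). The step from day 1 to day 2, 0.75, did not pass (limma adjusted p = 0.237), although the arrays did not overlap. The step from day 2 to day 4 was 1.24 ± 0.32 (SE) and passed narrowly at an adjusted p of 0.047 in limma. Of the 15 arrays, it kept its call on leaving out replicate 1 of day 2 or replicate 1 or 3 of day 7. It lost the call on leaving out any of the other 12, with changes of 1.02 to 1.29. From day 4 to day 7 the change was 0.20, with an interval of -0.49 to 0.90. In order of level, day 7 was followed by days 4, 2, 1 and 0, where days 7 and 4, and days 1 and 0, did not differ beyond their spread.

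The other PTX3 probe set showed a smaller change and was never called. It was 0.34 higher on day 4 than on day 0 (limma adjusted p = 0.337) and 0.75 ± 0.25 (SE) higher on day 7 (adjusted p = 0.0334 in limma, under the minimum change). It was below the lower quartile of the probe sets on 13 of 15 arrays. With the mean of both probe sets, the change of PTX3 on day 7 was 1.61 and stayed called.

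**Figure D2:**
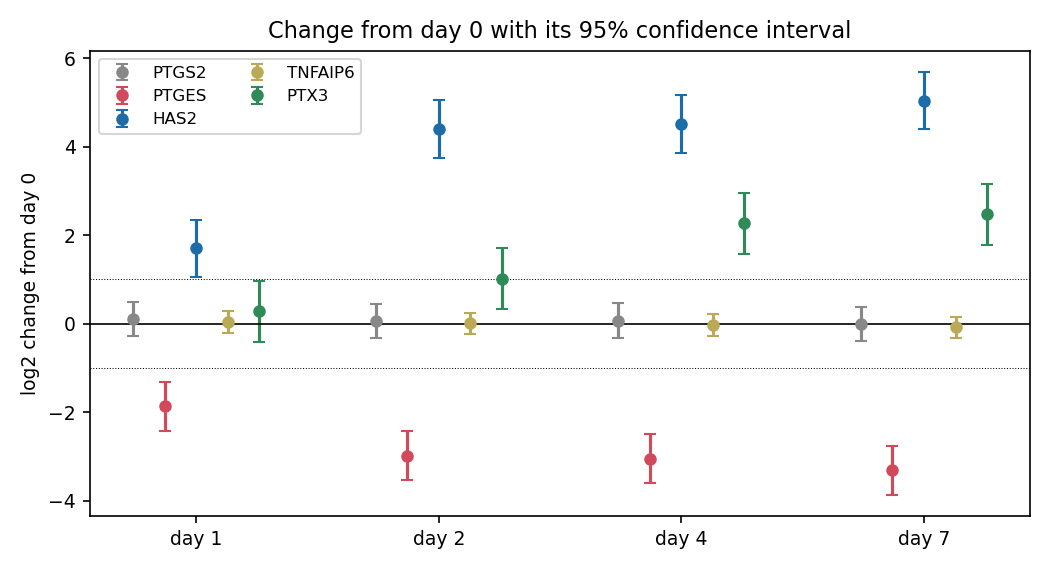
Log2 change from day 0 (vertical axis) of the 5 genes on days 1, 2, 4 and 7 (horizontal axis), from limma with 3 arrays a day. Points are fitted changes, bars 95% confidence intervals, and dotted lines mark the minimum change of 1 in either direction. PTGES ends at -3.31, HAS2 at 5.04 and PTX3 at 2.47, while the intervals of PTGS2 and TNFAIP6 include 0 on each day.

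The pace of the changes can be given as the share of each gene's log2 change between days 0 and 7. PTGES had covered 56.5% of it on day 1, 90.1% on day 2 and 92.1% on day 4. HAS2 had covered 33.7%, 87.4% and 89.5%, from a day 0 level near background, which makes these shares less certain. The used probe set of PTX3 had covered 11.2%, 41.4% and 91.7%. Its levels up to day 2 lay near or below the lower quartile of the arrays, where changes can be understated, so its early shares give no pace. Its other probe set gained 0.34 of its 0.75 by day 4. Differences in pace between genes were not tested.

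**Figure D3:**
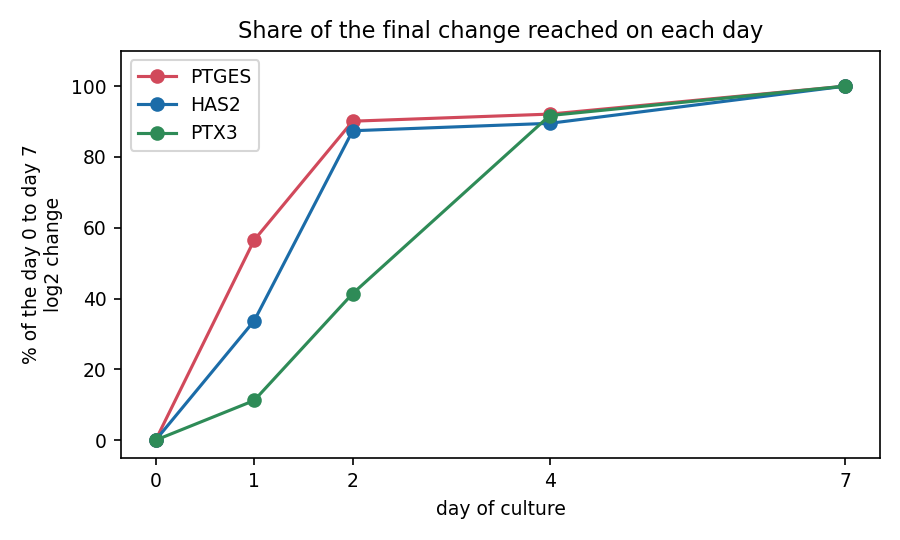
Percent of the log2 change between day 0 and day 7 (vertical axis) that PTGES, HAS2 and PTX3 had reached on each day of culture (horizontal axis, to scale). Points are computed from means of 3 arrays and are 0 and 100 at the ends by construction. PTGES and HAS2 had covered 90.1% and 87.4% by day 2, and the used PTX3 probe set 41.4%. HAS2 on day 0 and PTX3 up to day 2 were near background.

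Counts over the members are read against all probe sets, since many changed in culture. On day 1 against day 0, 1 of 5 members was called higher and 1 lower, where 12.5% of all probe sets were called. On day 2, day 4 and day 7 against day 0, 2 were called higher and 1 lower each time, against 13.8%, 15.9% and 16.6% of all probe sets. From day 1 to day 2 it was 1 higher and 1 lower against 3.04%, and from day 2 to day 4 it was PTX3 alone against 2.53%. From day 4 to day 7, limma called 0 of 5 members, none at an unadjusted p under 0.05, where 0.0583% or 14 of all probe sets were called, and 41 with a replicate block. Over the whole time course 3 of 5 members passed the F test, against 23.6% of all probe sets, with adjusted p in limma of 1.14e-06 for PTGES, 7.25e-08 for HAS2 and 6.22e-05 for PTX3.

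The genes most like each member were sought among 2143 genes with a range of day means of at least 1, by Pearson's r over the 15 arrays, which share their days, as a description of the courses only. Nearest to PTGES were SLC41A1, a magnesium transporter (r = 0.984), MAL2, a protein of apical membrane traffic (0.983), and FLVCR2 (0.982). SLC41A1 had day means of 11.42 on day 0, 8.57 a day later and 7.28 at the end. Nearest to HAS2 were ITGB3, the integrin beta 3 subunit (0.984), MSRB3, a methionine sulfoxide reductase (0.975), and PDZK1IP1 (0.975). ITGB3 had day means of 5.69, 8.07, 10.68, 11.13 and 11.23 over days 0, 1, 2, 4 and 7. By this measure the nearest to PTX3 were SEC23A, a coat protein of vesicles leaving the endoplasmic reticulum (0.948), STEAP1 (0.947) and PLXDC2 (0.945). STEAP1 was 4.14 on day 0, 4.03 on day 1, 7.58 on day 4 and 8.82 on day 7. The order rests on the measure used, least firmly for PTX3. Without replicate 1 its 3 genes ranked 37, 38 and 24 of 2143 in the order given, and by Spearman's rho 105, 84.5 and 27. Those of PTGES ranked 2, 12 and 1 without replicate 1 and 30.5, 22 and 16.5 by Spearman's rho. Those of HAS2 ranked 1, 16 and 13 and, by Spearman's rho, 67.5, 42 and 1.

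Of 16 other genes listed under prostaglandin synthesis, 15 enzymes and ANXA1, 8 were measured. On day 7 against day 0, 2 were called higher, the enzyme PTGS1 and ANXA1, and 2 lower, both enzymes, against 16.6% of all probe sets. The median change was -0.21, where that of all probe sets was -0.05. PTGS1, the constitutive cyclooxygenase, was 5.44 ± 0.78 (SD, n = 3) on day 0 and 7.86 ± 0.23 on day 1. Its change was 2.42 ± 0.35 (SE) on day 1 (limma adjusted p = 0.000163) and 1.70 on day 7 (0.00176). The difference in course from PTGS2 was not tested.

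PLA2G1B, a secreted phospholipase A2 that can release arachidonic acid, fell from 8.89 ± 0.47 (SD, n = 3) to 4.57 ± 0.05, which is at background, a change of -4.32 ± 0.31 (SE; limma adjusted p = 1.54e-07). PTGDS, which makes prostaglandin D2, fell by 1.49 on the log2 scale by day 7 (adjusted p = 5.64e-05 in limma). ANXA1, an annexin that restrains phospholipase A2, rose by 1.97 ± 0.35 (limma adjusted p = 0.000613). Of the other synthases, PTGES3, the cytosolic prostaglandin E synthase, was 0.81 higher and TBXAS1, which makes thromboxane, was at -0.77, both under the minimum change.

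Of 16 listed genes for prostaglandin receptors, transport and breakdown, 6 were measured. On day 7 none was called higher and 1 lower, with a median of -0.49, a share near the 16.6% of all probe sets called. The lower one was PTGFRN, a negative regulator of the prostaglandin F2 alpha receptor, at -1.85 ± 0.25 (SE; limma adjusted p = 7.3e-05). PTGFR, that receptor itself, had its highest mean on day 2. It was 8.98 ± 0.96 (SD, n = 3) on day 0, 11.57 ± 0.44 on day 2 and 9.60 ± 0.30 on day 7. The change on day 2 was 2.59 ± 0.51 (SE; limma adjusted p = 0.00173) and that on day 7 was 0.61 (adjusted p = 0.408). The step from day 1 to day 2, 1.33, was not called (limma adjusted p = 0.171). The step from day 2 to day 4, -1.95, was called at 0.0492, and leaving out any of 11 of the 15 arrays ended that call, with changes of -2.25 to -1.40. PTGR2, which takes part in inactivating prostaglandin E2, was at -0.76 on day 7, under the minimum change. So were PTGR1, at -0.97 on day 1 (limma adjusted p = 0.000151) and -0.35 on day 7, and SLCO3A1, at -0.62 on day 7. PTGER3, a receptor for prostaglandin E2, was at 1.12 on day 4 (adjusted p = 0.0286 in limma), a call lost on leaving out replicate 2 or 3 of day 0 (1.13 and 0.96) or replicate 3 of day 4 (0.79).

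Of 30 listed genes of hyaluronan and the cumulus matrix, members left out, 20 were measured, and on day 7, 3 were called higher and 1 lower, with a median of -0.05, a share near the 16.6% of all probe sets called. SDC1 and SDC4, cell-surface heparan sulfate proteoglycans, rose by 3.95 ± 0.39 (SE; limma adjusted p = 3.75e-06) and 1.40 ± 0.22 (0.000238). ADAMTS1, a protease that cleaves versican in ovulating follicles, had a change of 0.01 on day 1 and rose by 1.86 ± 0.31 from day 1 to day 2 (limma adjusted p = 0.00364), the interval in which HAS2 made its largest step. On day 7 it was 1.91 above day 0. VCAN, versican itself, a hyaluronan-binding proteoglycan, fell by 1.36 on the log2 scale (limma adjusted p = 5.44e-05).

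In the same list, HAPLN1, the link protein that ties proteoglycans to hyaluronan, was up by 1.81 ± 0.34 (SE) on day 2 (limma adjusted p = 0.00117) and at -0.17 on day 7 (0.753). Its means of 4.49 on day 0 and 4.32 on day 7 were near background. HMMR, a hyaluronan receptor that is also a gene of dividing cells, was at -3.03 ± 0.66 on day 1 (adjusted p = 0.0035 in limma). On day 7 it was at -1.42 (0.122), and no step after day 1 was called. HYAL3, of the hyaluronidase family, was 1.21 ± 0.17 higher on day 1 (limma adjusted p = 0.000125). UGP2, which makes the UDP-glucose from which hyaluronan precursors come, was 0.98 higher on day 7, just under the minimum change.

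Of 40 listed genes that carry or follow the ovulatory signal, 27 were measured. On day 7, 2 were called higher and 7 lower, with a median of -0.23, where 9.36% of all probe sets were called higher and 7.28% lower. Whether the list differs from other genes was not tested. LHCGR, the receptor for luteinizing hormone, had day means of 12.06, 9.06, 10.74, 7.60 and 5.91 over days 0, 1, 2, 4 and 7, a change of -6.15 ± 0.34 by day 7 (SE; limma adjusted p = 1.38e-08). It did not fall steadily, since it was 1.68 higher on day 2 than on day 1 (limma adjusted p = 0.00955), a call lost on leaving out replicate 2 or 3 of day 2 (1.54 and 1.49). FOS, an immediate early transcription factor, fell by 4.73 (4.34e-07), ATF3 by 2.50 (6.78e-05) and RGS2, a regulator of G protein signalling, by 2.62 (0.00126) on the log2 scale, each with its limma adjusted p. FOSL2 was up by 2.67 on day 1 and by 1.33 on day 7 (limma adjusted p = 0.00706), where the call was lost without day 0 replicate 1 (0.84).

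AREG, an EGF-like factor that passes the ovulatory signal to the cumulus, had day means of 4.98 on day 0 and 6.90 on day 1. That change of 1.91 ± 0.65 (SE) was called with a limma adjusted p of 0.0443. The call was lost when any of 10 of the 15 arrays was left out, with the change down to 1.35 without day 1 replicate 1. On day 7 the change was -1.23 (adjusted p = 0.178 in limma).

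Inflammatory signalling can induce PTGS2, HAS2, TNFAIP6 and PTX3 in many cell types. Of 24 listed genes of this signalling, 18 were measured. On day 7, 6 were called higher and 1 lower, with a median of 0.52, against the same 9.36% and 7.28% of all probe sets, with no test of the difference. CCL2, a monocyte attractant, rose by 7.47 ± 0.58 (SE; limma adjusted p = 3.14e-07) and LIF, a cytokine of the interleukin 6 family, by 5.15 ± 0.35 (1.12e-07). Both started near or below the lower quartile of the arrays, with day 0 means of 4.78 and 3.64, so the sizes of their changes are less certain. IL1R1, the signalling receptor of interleukin 1, rose by 3.47 on day 1 and 2.64 on day 7, IL1A by 2.45 and TNFRSF1A, a receptor of tumour necrosis factor, by 2.44 on day 7. The day means of IL1B and TNF, also listed, spanned 0.24 and 0.93, under the minimum change. The 1 lower was NFKBIA, an inhibitor of NF-kappa-B, at -1.20 ± 0.31 (SE; limma adjusted p = 0.00792). All 5 lists share the day 0 arrays as their baseline.

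**Figure D4:**
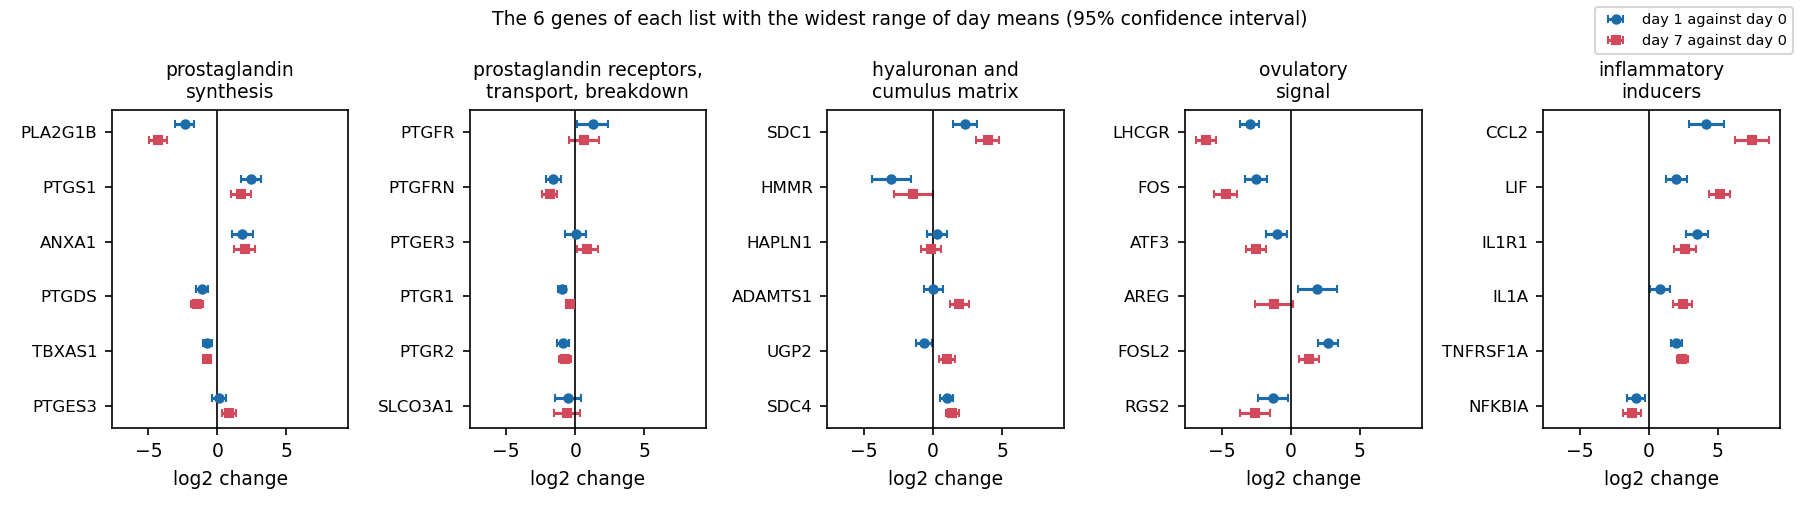
Log2 change from day 0 (horizontal axis) on day 1 (circles) and day 7 (squares) of the 6 genes with the widest range of day means in each of 5 lists (vertical axis, gene names), from limma with 3 arrays a day. Bars are 95% confidence intervals. LHCGR reaches -6.15 and CCL2 7.47 on day 7. The fitted change of AREG is 1.91 on day 1 and -1.23 on day 7, where its interval of -2.62 to 0.17 includes 0.

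Markers of other cell types also moved in culture, only in part at the same times as members. Of the 9 measured fibroblast and smooth muscle markers, 8 were called higher on day 7 and none lower, and their summed intensity climbed while HAS2 and PTX3 rose. It was 2803 to 3538 on the first day of culture, 10772 to 11657 on the second and 29744 to 35033 by day 4. Of the 12 granulosa markers, none was called higher and 6 lower on day 7, as PTGES fell. Of 4 theca markers, 2 were called lower, 1 of which is LHCGR, which granulosa cells also express. The sum of the 4 went from 2802 to 6059 on day 0 down to 147 to 172, and on day 0 LHCGR made up most of it. Day 0 means were 12.06 for LHCGR, 8.03 for INSL3 and 4.99 for CYP17A1. CYP17A1 had day means of 4.99 to 5.29 and was not called. The summed intensity of 6 epithelial markers was highest on day 2, at 875 to 1530, against 239 to 299 on day 1. Against day 0, 3 were called higher on day 2, EPCAM, KRT8 and KRT19. The epithelial cadherin CDH1 was called lower (-1.11). The calls of KRT8 and CDH1 were lost in 6 and 3 of 24 alternatives. From day 1 to day 2, the interval of the largest step of HAS2, EPCAM, an epithelial adhesion molecule, rose by 4.28 ± 0.42 (SE; limma adjusted p = 0.000101) and KRT19, a keratin, by 4.07 ± 0.55 (0.00087). The part of these cell types in the members' changes was not tested.

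Markers of white blood cells had low summed levels on every day. Of 8 macrophage markers, 1, CD14, was called higher on day 7 (1.67 ± 0.22, SE; limma adjusted p = 4.02e-05) and none lower, with sums of 182 to 237 on day 0 and 234 to 255 on day 7. PTPRC, which all white blood cells carry, had day means of 3.68 to 3.78, below the lower quartile. Of 7 lymphocyte and granulocyte markers limma called 0, and 0 at an unadjusted p under 0.05, with sums of 140 to 205 and 149 to 167.

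Of 10 endothelial markers, 2 were called higher on day 7, ERG (log2 change 3.43) and PECAM1 (1.49), and 1 lower, TIE1 (-2.4). The sums of the 10 were 568 to 734 on day 0 and 501 to 721 on day 7. CDH5, the endothelial cadherin, was not called and had day means of 3.85 to 4.38. Of 6 epithelial markers, 1 was called higher on day 7, KRT19 (3.46), and 1 lower, CDH1 (-1.09), with sums of 242 to 280 on day 0 and 375 to 864 on day 7. Of 6 oocyte markers, 1, GDF9, was called lower, with sums of 314 to 425 and 189 to 202. Of 2 red blood cell markers none was called in limma and 1 passed an unadjusted p under 0.05, with sums of 422 to 569 on day 0 and 358 to 415 on day 7. Log2 intensities have no zero, so no marker is listed at 0.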

How the data were processed

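The deposited values are log2 intensities per probe set made with RMA, per the submitters' processing notes, with no version named. They ran from 2.29 to 14.95. Of 24123 probe sets, 124 controls were left out. Of the other 23999, 10069 had 1 gene symbol, 198 had several and 13732 had none. A linear model with day as the only factor was fitted in limma 3.58.1 (R 4.3.3; moderated t and F tests) to the 15 arrays, and the fit was tested on simulated data. The 5 genes, 5 pathway lists and 9 marker lists were chosen with earlier results of these data known. Named from each pathway list were the 6 genes with the widest range of day means, and in lists with few calls all called genes. IL1B and TNF were named besides. Of the markers, some defining and some called ones were named, not all. Deviations from day means correlated between same-numbered arrays over 0.1 for every pair in 6 of 7 comparisons (0.0609 to 0.333 on day 1 against day 0), so a replicate block was an alternative. No pair of arrays was identical (0 of 105). Other alternatives were 3 further normalizations, a filter on dim probe sets, other variance settings, subsets of arrays, no minimum change, the mean of both PTX3 probe sets and each array left out. No positions or sequences are given.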

Additional observations from a re-analysis of the deposited data

How the results depend on the processing

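Over 25 alternatives, 15 of which left out 1 array, 566 changes of the 5 genes were recomputed. Of these, 526 kept direction and side of the threshold, 28 lost their call, 0 gained one, 0 called changes reversed, and 12 uncalled changes near 0 changed sign. The lost calls were the step of PTGES from day 1 to day 2 (5 of 25), PTX3 on day 2 (7 of 24) and its step from day 2 to day 4 (16 of 24); the cause was not tested. The change on day 7 ranged from -3.58 to -3.17 for PTGES, 4.79 to 5.23 for HAS2 and 1.61 to 2.81 for PTX3.

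From day 1 to day 2, members called went from 2 to 1 with only the 6 arrays compared, and were 1 to 2 with an array left out. From day 2 to day 4 they went from 1 to 0 with a second quantile normalization, cyclic loess, only the 6 arrays compared or the mean of both PTX3 probe sets, with 1 member at an unadjusted p under 0.05 in limma each time, and to 0 of 2 without the dimmest 40% of probe sets, which leaves out PTX3; with an array left out they were 0 to 1. With a replicate block the members called were 2, 3, 3 and 3 against day 0, then 2, 1 and 0 between neighbouring days and 3 over the time course, as without it, and no member's call changed.

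Without a minimum change, probe sets called rose to 6020, 6248, 7360 and 7514 against day 0, 1461 and 1002 for the next 2 steps, and 8605 over the time course. From day 1 to day 2 they were 1321 with replicates 2 and 3 only (729 in the main result), and from day 2 to day 4 371 with only the 6 arrays compared (608). From day 4 to day 7 they were 4 without the dimmest 40%, 41 with the replicate block, 55 with replicates 2 and 3 only and 0 with only the 6 arrays compared (14). Low signal limits PTGS2, TNFAIP6 and the early levels of HAS2 and PTX3.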
